A study of Mus musculus with 13 samples.

Results

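The mouse genes of cytosolic ribosomal proteins were taken from ribosome footprint profiles of fibroblasts under endoplasmic reticulum (ER) stress. All symbols that begin with Rpl or Rps and a number were used, without pseudogenes and the Rps6k kinases, together with Rplp0, Rplp1, Rplp2 and Rpsa. The tables hold 85 such symbols of 22406. Of these, 82 had a mean TPM (a level per length and per library) of at least 2 over the MEF libraries, 48 of the large and 34 of the small subunit. In NIH3T3 cells 80 passed, 46 of the large and 34 of the small subunit. Rpl3l, Rpl10l and Rpl32l did not pass in either table, and Rpl29 and Rpl37rt not in NIH3T3 cells. The 82 genes include 75 standard ribosomal proteins, the paralogs Rpl7l1, Rpl22l1, Rpl36al, Rpl37rt, Rps27l and Rps27rt, and Rps19bp1, which the symbol rule also takes but which encodes a nucleolar partner of Rps19 and not a part of the ribosome.

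The mouse embryonic fibroblasts (MEFs) were WT or PERK-/-, the latter knocked out for the ER stress kinase PERK. Each genotype was left untreated (control) or received 1 µM thapsigargin (Tg), which blocks the calcium pump of the ER, over 1, 2, 5 or 8 h. NIH3T3 cells, an established mouse fibroblast line, were left untreated or received 200 nM Tg over 2 or 7 h. Each of the 13 conditions is 1 library, all from cultured cells, and all comparisons of a cell line share 1 control library. No replicate error can therefore be given, p-values are not printed, and whether a MEF line came from 1 clone is not given in the sources used here. A footprint count joins the amount of an mRNA with the ribosomes on it, so less mRNA and fewer ribosomes per mRNA cannot be told apart.

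The libraries held between 2525029 and 14799515 expected counts, and the members had a median of at least 1755 counts per gene in each Tg library. Eif2ak3, the gene of PERK, had 21.3 CPM (counts scaled to the library total) in the WT control and 11 in the PERK-/- control, and its CPM was lower in PERK-/- than in WT MEFs at each time. In TPM the order was not the same, with 6.03, 8.49, 6.20, 13.98 and 15.7 TPM in the WT control and at 1, 2, 5 and 8 h, and 11.2, 7.32, 5.21, 14.9 and 17.2 TPM in PERK-/- MEFs. Gene totals do not show which part of Eif2ak3 was deleted, so they do not settle the PERK-/- label. Of 7 fibroblast markers, Vim, Col1a1, Col1a2 and Thy1 were at 115 TPM or more in every library, Pdgfrb reached 25.1 TPM or more in MEFs but at most 5.36 in NIH3T3 cells, Pdgfra was at 0.27 TPM in the WT control, and Col3a1 was at most 1.67 TPM in NIH3T3 cells. The 6 markers of epithelial, blood and endothelial cells stayed at or under 4.49 TPM. The 1 h WT library stood apart. On 8 genes with at least 100 counts in every PERK-/- library and under 10 in the WT control (a rule chosen after seeing the data) it had 357 counts, or 98.9 CPM, against 2.76 to 6.62 CPM in the other WT libraries and 375 to 541 CPM in PERK-/- MEFs. The part of this in the 1 h WT values was not tested, and results that rest on that library are given with the later times.

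The eukaryotic ribosome is built from a large (60S) and a small (40S) subunit, each of ribosomal RNA and of many small proteins, most of which are needed in equal numbers. Their mRNAs are abundant and short, and most begin at a C followed by a run of pyrimidines, the terminal oligopyrimidine (TOP) motif, through which mTORC1 and the LARP1 protein set their translation. During ER stress PERK phosphorylates eIF2α, which lowers initiation on most mRNAs.

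The following sequences bear on how the footprints of these genes can be read. The first set is a pair of genes for 1 and the same protein. Rpl36a (GRCm38, chrX:134585654-134588056, plus strand, 5 coding exons) and Rpl36al (chr12:69182731-69184083, minus strand, 1 coding exon) both have a coding sequence of 321 bases for 106 residues. At 39 bases the coding sequences differ, and at 0 residues. Their first 150 coding bases are shown, with the bases that differ (23 of 150) in capitals.
Rpl36a: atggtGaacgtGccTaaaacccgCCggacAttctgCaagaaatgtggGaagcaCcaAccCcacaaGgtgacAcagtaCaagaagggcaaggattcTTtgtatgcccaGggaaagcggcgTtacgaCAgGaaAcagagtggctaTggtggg
Rpl36al: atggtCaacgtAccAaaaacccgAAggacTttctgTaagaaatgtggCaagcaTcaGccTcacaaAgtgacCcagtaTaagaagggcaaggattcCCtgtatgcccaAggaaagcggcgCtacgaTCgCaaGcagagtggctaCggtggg
Their GC content is close (48.3% and 49.2%), and 0% of the 28-base stretches of either occur in another listed gene.

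The second set is Rpl34 (chr3:130726831-130730398, minus strand, 4 coding exons) and its pseudogene Rpl34-ps1 (chr6:71124610-71124963, plus strand), which differ at 2 of 354 bases. The 41 bases around each difference, marked by the capital, are shown. Only a footprint that covers the base in capitals can be given to 1 of the 2 genes. Coding bases 112 to 152 come first.
Rpl34: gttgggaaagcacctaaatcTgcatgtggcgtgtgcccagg
Rpl34-ps1: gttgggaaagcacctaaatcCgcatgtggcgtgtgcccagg
Coding bases 298 to 338 follow.
Rpl34: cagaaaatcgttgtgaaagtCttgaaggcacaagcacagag
Rpl34-ps1: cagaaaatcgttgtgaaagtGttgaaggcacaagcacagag
Rps27 and Rps27rt could not be told apart at all, with 0 of 255 coding bases different, and the tables give them the same values in every library.

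The third set is of promoters around the RefSeq start site (GRCm38.p6), from 50 bases before it to 30 after, with a run of at least 8 pyrimidines that starts with C in capitals. Rps27, Rpl35 and Rps6 are shown because they fell in WT MEFs, and Rpl18, Rplp2 and Rps26 because they did not.
Rps27 (chr3:90213619-90213698, minus strand): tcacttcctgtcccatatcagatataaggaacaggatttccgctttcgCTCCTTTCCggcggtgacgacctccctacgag
Rpl35 (chr2:39005102-39005181, minus strand): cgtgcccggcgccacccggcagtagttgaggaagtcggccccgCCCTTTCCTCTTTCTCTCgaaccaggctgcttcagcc
Rps6 (chr4:86857338-86857417, minus strand): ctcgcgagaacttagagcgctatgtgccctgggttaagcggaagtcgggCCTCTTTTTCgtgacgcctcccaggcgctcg
Rpl18 (chr7:45718021-45718100, plus strand): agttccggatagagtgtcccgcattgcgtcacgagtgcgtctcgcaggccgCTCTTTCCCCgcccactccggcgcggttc
Rplp2 (chr7:141447601-141447680, plus strand): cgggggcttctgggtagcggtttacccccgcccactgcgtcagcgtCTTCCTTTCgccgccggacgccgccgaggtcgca
Rps26 (chr10:128626477-128626556, minus strand): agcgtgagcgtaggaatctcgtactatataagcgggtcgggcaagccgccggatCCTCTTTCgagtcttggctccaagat
A run of this kind, on the strand of the gene, was found in 36 of the 55 standard members with a promoter entry (65.5%), in 22 of 32 of the large subunit (68.8%) and in 14 of 23 of the small subunit (60.9%). Of all 27025 genes with an entry, 27.2% have one. A match describes these letters only. The median log2 changes of the 36 genes with a run and of the 19 without were close, with −0.29 and −0.32 after 2 h in WT MEFs and 0.27 and 0.32 after 2 h in PERK-/- MEFs, and the 95% interval of each median held the other. In WT MEFs after 8 h the medians were −0.21 (−0.47 to −0.07) with a run and −0.38 (−0.66 to 0.00) without.

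The members took a large share of all footprints, and this share moved differently in the 3 cell lines. In WT MEFs 6.99% of the counts of the control lay on them, and 5.62%, 5.89%, 6.04% and 5.88% at 1, 2, 5 and 8 h of Tg. For PERK-/- MEFs it was 5.94% in the control, 7.28% after 1 h, 7.68% after 2 h, 5.73% after 5 h and 4.33% after 8 h. In NIH3T3 cells it was 6.86% in the control, 6.20% after 2 h and 7.65% after 7 h. The 4 WT libraries with Tg thus all lay under their control, while the PERK-/- libraries lay above it at 1 and 2 h and below it after 8 h. The exact binomial 95% interval of the share in the WT control was 6.97 to 7.00%, but intervals of counts cover counting error only, since reads of a PCR-amplified library are not independent molecules. As a share of all TPM, which is per length, the members held between 9.52% (PERK-/- after 8 h) and 16.1% (PERK-/- after 2 h).

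**Figure D1:**
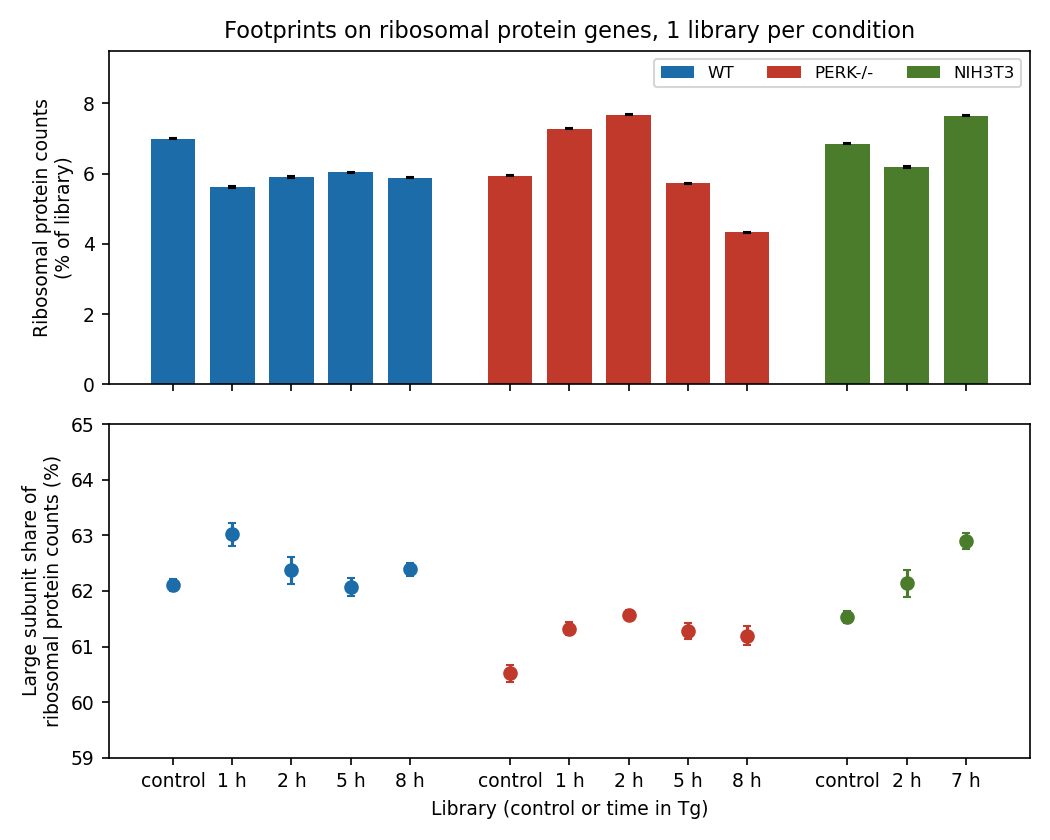
The upper panel shows the percent of expected counts of each library on the ribosomal protein genes (bars from 0, with exact binomial 95% intervals as whiskers), and the lower panel the percent of these counts on large subunit genes (points, same intervals, axis from 59 to 65%). The 4 WT libraries with Tg lie at 5.62 to 6.04%, under the control at 6.99%, while PERK-/- after 2 h reaches 7.68% and PERK-/- after 8 h is at 4.33%. The large subunit share stays between 60.5 and 63.0% in the 13 libraries.

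Per gene, changes are given as the log2 ratio of TPM in a Tg library over its own control, with TPM under 4 raised to 4. In WT MEFs the median over the 82 members was −0.32 after 1 h (95% order-statistic interval −0.44 to −0.26), −0.27 after 2 h (−0.37 to −0.11), −0.18 after 5 h (−0.35 to −0.05) and −0.24 after 8 h (−0.38 to −0.09). The median of all 10432 expressed genes was between 0.00 and 0.01 there. The median in PERK-/- MEFs was 0.27 after 1 h (0.19 to 0.32) and 0.29 after 2 h (0.17 to 0.39), beside −0.06 and −0.11 over all expressed genes. It was −0.09 after 5 h (−0.17 to −0.04), where all genes were at 0.00, and −0.44 after 8 h (−0.51 to −0.39), where they were at 0.04. NIH3T3 cells had a median of −0.29 after 2 h (−0.35 to −0.22) and 0.10 after 7 h (0.01 to 0.22), beside −0.13 and 0.00 over all 10117 expressed genes. With DESeq2 size factors the medians were 0.47 in PERK-/- MEFs and −0.11 in NIH3T3 cells after 2 h, so both rest on the scaling. Genes are not replicates, and the intervals describe the spread over genes within 1 pair of libraries.

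In WT MEFs after 1 h, 19 of the 82 members (23.2%) fell by at least 1.5-fold, where 10.2% of all expressed genes did, and 1 member (1.22%) rose, where 12.8% of all genes did. After 2 h 18 members (22%) fell and 0 rose, with 12.3% and 15.3% of all genes. After 5 h 20 members (24.4%) fell and 1 rose, with 11.6% and 16.7% of all genes, and after 8 h 24 (29.3%) fell and 1 rose, with 12% and 17.8%. The single member that rose at these times was Rpl37rt, at 0 to 17 counts, so no standard member rose by 1.5-fold in TPM in WT MEFs. In counts per library total, 1, 1, 2 and 1 of the 82 members rose by 1.5-fold at 1, 2, 5 and 8 h. After 2 h this was Rpl10a, as given below. Shares over all expressed genes were not taken in counts.

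Among PERK-/- libraries 4 members (4.88%) rose after 1 h and 1 fell, where 3.78% and 13.4% of all genes did. These were Rpl22l1, Rpl31, Rpl34 and Rpl38 against Rps19bp1. Of the 28-base stretches of Rpl31, 78.0% occur in other listed genes, among them its pseudogene Rpl31-ps12. From the PERK-/- control to 1 h, Rpl31 went from 701 to 1172 TPM and Rpl31-ps12 from 1437 to 1264 TPM. How reads were divided between Rpl31 and Rpl31-ps12 was not tested. After 2 h 10 members (12.2%) rose and 0 fell, where 3.57% and 18.8% of all genes did. After 5 h 1 (Rpl37rt, at 15 counts) rose and 3 (3.66%) fell, beside 10.6% and 12.8% of all genes. After 8 h 18 members (22%) fell, where 8.24% of all genes did, and the 1 that rose (12.5% of all genes) was Rpl34, which is also among those that rose at 1 and 2 h and is not resolved in these cells. In NIH3T3 cells after 2 h 6 of 80 members (7.50%) fell and 0 rose, beside 18.2% and 12% of all genes. After 7 h 4 (5.00%), Rpl3, Rpl30, Rps3 and the unresolved Rpl34, rose and 1 (Rpl24) fell, beside 16.7% and 20.1%. With TMM factors 2 rose and 1 fell in NIH3T3 cells after 2 h. With the same factors 10 and 23 members rose in PERK-/- MEFs at 1 and 2 h and 31 fell after 8 h. Shares over all expressed genes were not taken with these factors.

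The medians of the genotypes had opposite signs at 1 and 2 h and the same sign at 5 and 8 h. After 1 h 65 of the 82 members were lower than the control in WT and higher in PERK-/- MEFs, and 54 of them were so with both count intervals clear of 0. After 2 h these numbers were 56 and 49. Of all expressed genes, 18.5% had this combination of signs after 1 h and 17.9% after 2 h. These shares are for signs alone. Count intervals were not taken over all expressed genes, so the 54 and 49 have no such share beside them. By 5 h 13 members had these signs (15.9%, beside 16.9% of all expressed genes), and by 8 h 1 did (1.22%, beside 18.9%). The other way round were 8 and 19 members. The share of all expressed genes the other way round was not taken, so these 2 counts are not read as a result about the members. The difference between the genotypes' changes had a median of 0.58 over the members after 1 h and 0.53 after 2 h, with the PERK-/- change above the WT change in 76 and 68 of 82, and −0.19 after 8 h, with 24 of 82. Over all expressed genes the same medians were −0.09, −0.19 and 0.00. The untreated libraries also differed, and of 74 standard members 57 were lower and 17 higher in the PERK-/- than in the WT control, with a median log2 ratio of −0.21, beside 0.08 over all expressed genes. With 1 library of each, a difference between the genotypes and one between libraries cannot be told apart.

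**Figure D2:**
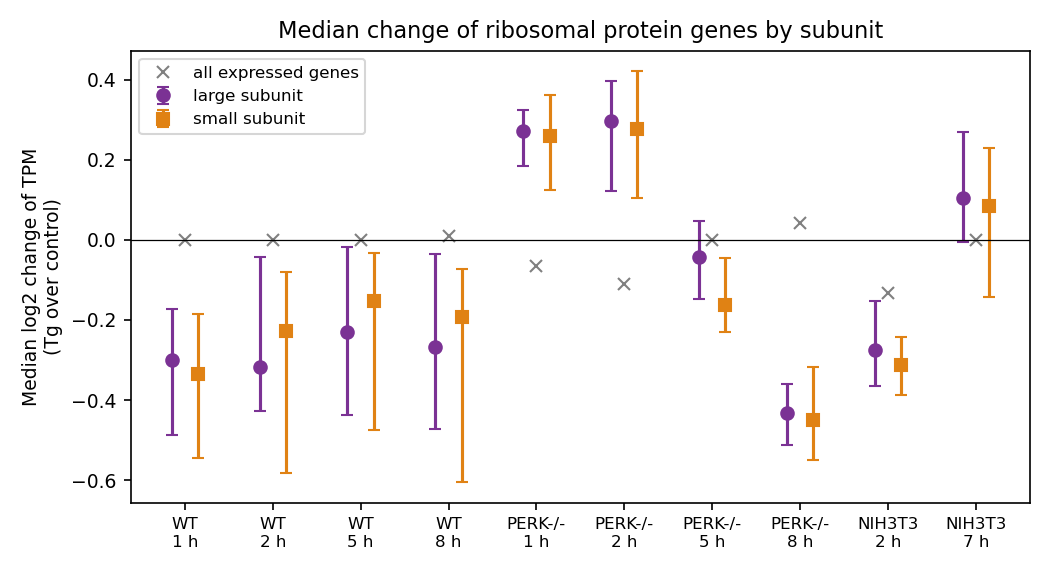
The median log2 change of TPM (Tg over control) is plotted for the large (circles) and the small subunit (squares) in the 10 comparisons, with whiskers for 95% order-statistic intervals over genes and crosses for the median of all expressed genes. The 2 subunits overlap in every comparison, below 0 in WT MEFs and above 0 in PERK-/- MEFs at 1 and 2 h.

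Each ribosome holds 1 subunit of each kind, so the subunits were compared next. The medians of the large and the small subunit were −0.30 and −0.34 after 1 h, −0.32 and −0.23 after 2 h, −0.23 and −0.15 after 5 h and −0.27 and −0.19 after 8 h in WT MEFs. The PERK-/- values were 0.27 and 0.26, 0.30 and 0.28, −0.04 and −0.16, and −0.43 and −0.45. NIH3T3 cells gave −0.28 and −0.31 after 2 h and 0.11 and 0.08 after 7 h. The largest difference between the 2 medians was 0.12, in PERK-/- MEFs after 5 h, and the intervals of both overlapped in all 10 comparisons. In counts, 62.1% of the footprints on members lay on the large subunit in the WT control, 60.5% in the PERK-/- control and 61.5% in the NIH3T3 control. The lowest share of the 13 libraries was that PERK-/- control, and the highest was 63.0% (62.8 to 63.2%), in the 1 h WT library. All 4 PERK-/- libraries with Tg, at 61.2 to 61.6%, lay above their control beyond counting error (60.4 to 60.7%). The same held for NIH3T3 cells after 2 h (62.1%) and 7 h (62.9%) against 61.5%, and for WT MEFs after 1 h and after 8 h (62.4%) against 62.1%. Whether these shifts exceed the spread between replicate libraries cannot be said. The SD over single members of both subunits was 0.37 in WT MEFs after 2 h and 0.43 after 8 h.

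Within the subunits, members were grouped by their place in the ribosome. The 2 proteins bound to 5S rRNA, Rpl5 and Rpl11, which also bind MDM2 when unassembled, were at −0.49 and −0.50 after 1 h and at −0.69 and −0.79 after 8 h, and both fell by 1.5-fold at 5 and 8 h. The P stalk (Rplp0, Rplp1, Rplp2 and Rpl12), which recruits elongation factors, had members on both sides of 0 in WT MEFs. Rplp0 was above its control and Rpl12 and Rplp2 below theirs at all 4 times, and the median of the group was −0.17 after 1 h, where Rpl12 fell (−0.68), 0.09 after 2 h and 0.01 after 8 h. Around the rim of the exit tunnel, 7 listed proteins (of 8, since Rpl39 is not in the tables) had a median of −0.36 after 2 h, from −0.67 (Rpl35) to 0.11 (Rpl19). The 14 proteins of the 40S head had a median of −0.10 after 2 h and −0.12 after 8 h, and the 16 of the 40S body −0.21 and −0.23. After 8 h 3 (21.4%) and 5 (31.25%) of them fell, beside 29.3% of all members and 12% of all expressed genes. In PERK-/- MEFs after 8 h all 5 groups lay between −0.61 and −0.31. Rpl39 and Rpl41, with short coding sequences of 156 and 78 bases (96 and 18 with 30 clipped from each end), are not in the tables.

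**Figure D3:**
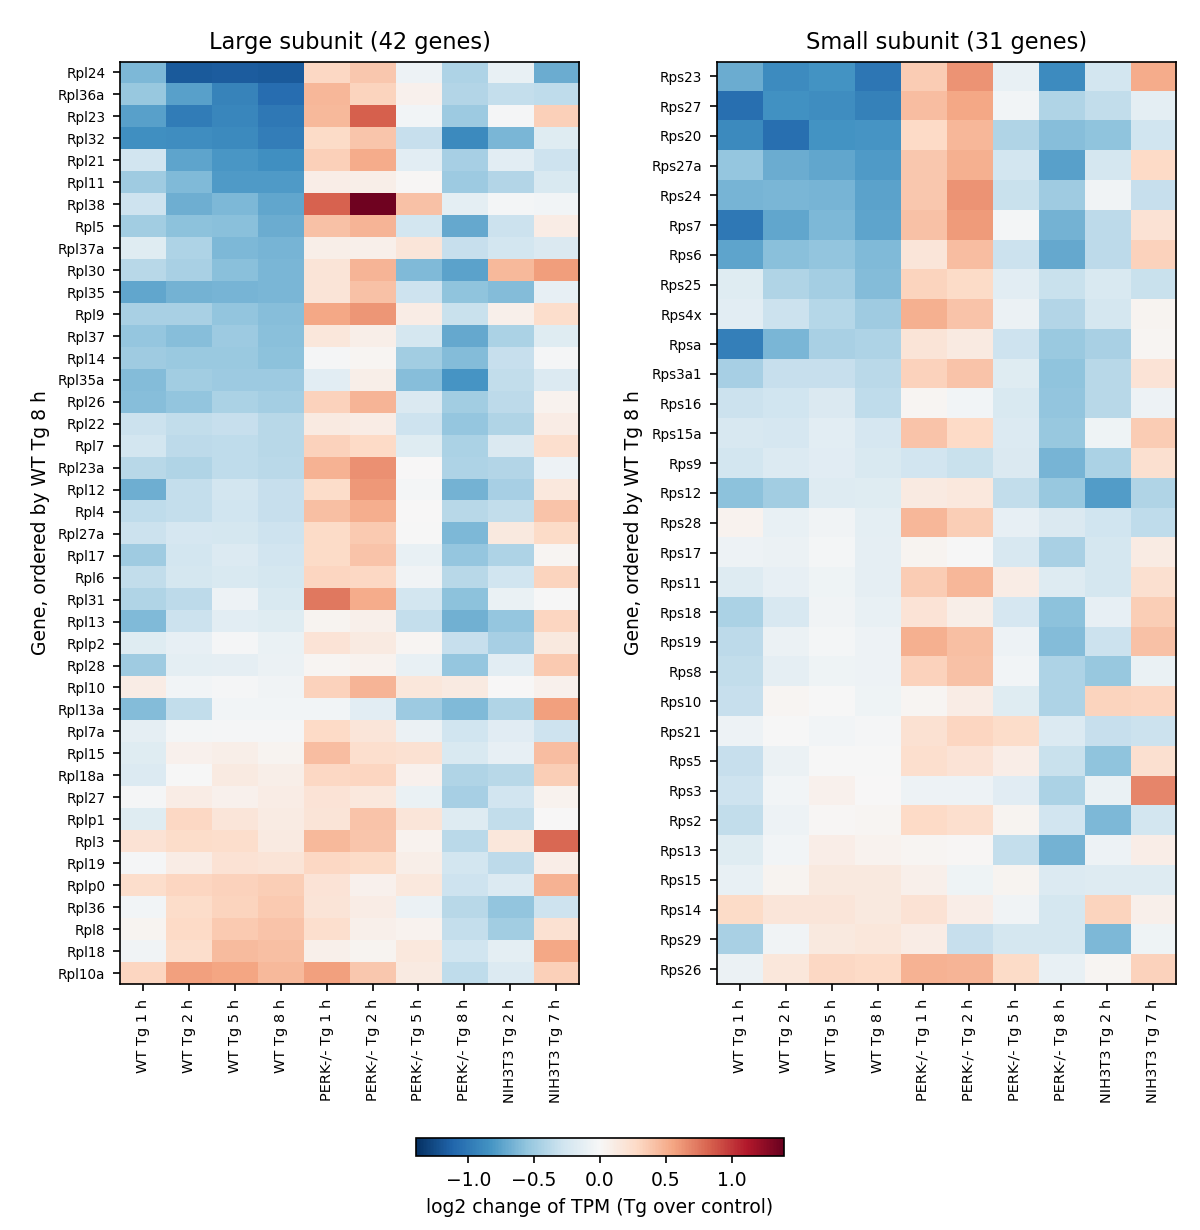
The log2 change of TPM (Tg over control, blue lower and red higher) is shown for 42 large and 31 small subunit genes in the 10 comparisons, ordered by WT after 8 h, without the paralogs, Rps19bp1, Rpl29 and Rpl34. The WT column after 8 h runs from Rpl24 (−1.18) to Rpl10a (0.45), PERK-/- columns are mostly above 0 at 1 and 2 h, with Rpl38 highest at 1.36, and below 0 after 8 h.

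The levels themselves spanned a wide range. Rplp2, an acidic protein of the P stalk, had the highest TPM of the standard members in the WT control (3827 TPM), before Rpl37 (3756) and Rps15a (3219.6). The lowest were Rpl29 (188), Rps27 (573) and Rplp0 (681). Rplp2 was first in all 5 WT libraries, with 3393, 3547, 3781 and 3594 TPM at 1, 2, 5 and 8 h. It was first or second in every other library, and the PERK-/- library after 2 h was led by Rpl38 with 5218 TPM. Its neighbours in the stalk had 1043 (Rplp1) and 1089 (Rpl12) TPM in the WT control. Rps27 shares all its bases with Rps27rt, so its level is divided between the 2 genes, and 78.5% of the 28-base stretches of clipped Rplp2 occur in another listed gene.

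Rpl24, a protein of the large subunit that bridges to the small one, was lowest in WT MEFs. It had 2611 TPM in the control and 1686, 1154, 1168 and 1152 TPM at 1, 2, 5 and 8 h. The last 3 libraries lay close together at less than 45% of the control, and 1 h lay between. As the log2 change of counts per library total this was −0.62 (−0.68 to −0.56) after 1 h and −1.18 (−1.23 to −1.13) after 8 h. The PERK-/- MEFs had Rpl24 at 1844 TPM in the control and 2259, 2389.9, 1760.5 and 1369.6 TPM with Tg, so it did not stand apart from the other members there. In NIH3T3 cells it had 1203, 1118 and 743 TPM, and it was the 1 member that fell after 7 h, by 0.69 on the log2 scale (−0.69).

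Rpl23, which lies on the face of the 60S subunit that eIF6 covers, had 2486 TPM in the WT control and 1463, 1262, 1318 and 1238 TPM with Tg. Its PERK-/- values were 1684, 2309, 3016, 1642 and 1181 TPM. It thus rose 1.5-fold or more after 2 h in PERK-/- MEFs (log2 0.84) and fell at every time in WT MEFs (−0.77 to −1.01). Rps23, of the decoding centre, went from 2499.8 TPM to 1545, 1353, 1394 and 1236 TPM in WT MEFs, and from 2282 to 2922, 3541, 2118 and 1235 TPM in PERK-/- MEFs. Both genes had opposite signs in the 2 genotypes at 1 and 2 h and the same sign after 8 h.

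Rps20, of the 40S head, had 1011 TPM in the WT control and 546, 488, 565 and 568 TPM with Tg, which is a fall at all 4 times (lowest after 2 h, −1.05). Rps27, a zinc-binding protein of the 40S body, had 573 TPM in the control and 276, 318, 313 and 297 with Tg, and its lowest change, −1.05, was in the 1 h WT library. Without that library it was at −0.85 to −0.95, still a fall. Rps7 reached 2-fold only in that library, and was at −0.63 to −0.74 at 2 to 8 h. Rpsa, the 40S protein also known as the laminin receptor precursor, had 1265 TPM in the WT control and 653, 809.5, 924 and 939 TPM with Tg. Its change was therefore −0.95 in the 1 h library and −0.43 after 8 h, and it passed 1.5-fold at 1 and 2 h only. By the mean distance from the members' median over the 4 times, Rpl24 (−0.78), Rps27 and Rps27rt (−0.68 each) were lowest in WT MEFs. Without the 1 h library they were Rpl24 (−0.94), Rpl23 (−0.74) and Rpl36a (−0.69).

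At the other end, Rpl10a, the protein of the mobile L1 stalk, had 1075 TPM in the WT control and 1324, 1603, 1574 and 1471 TPM with Tg. All 4 values lay above the control, and the counts gave 0.74 (0.67 to 0.81) after 2 h. In TPM the largest log2 change was 0.58 and did not pass 1.5-fold, which the counts after 2 h did. The mean distance of Rpl10a from the members' median was 0.72, or 0.76 without the 1 h library. Rplp0, the base of the P stalk and a common reference gene, had 681 TPM in the WT control and 808, 838, 849.6 and 863 TPM with Tg, a change of 0.25 to 0.34. PERK-/- MEFs had Rplp0 at 781 TPM in the control and 891, 815, 865 and 638 TPM, and in NIH3T3 cells 1034, 907 and 1445 TPM. Rplp1 had 1043 TPM in the WT control and 928, 1271, 1176 and 1128 TPM with Tg. In TPM these 3 genes did not pass 1.5-fold in any MEF library.

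Rpl36a and Rpl36al, which encode the same protein of the tRNA exit site, moved apart in WT MEFs. Rpl36a had 2300.5 TPM in the control and 1594, 1361, 1202 and 1101 TPM at 1, 2, 5 and 8 h. Rpl36al had 609 TPM in the control and 717, 784, 893 and 876 TPM. Every Tg value of Rpl36a lay under its control and every one of Rpl36al above it. The log2 changes of counts were −0.94 (−1.02 to −0.86) and 0.55 (0.44 to 0.65) after 5 h. The share of Rpl36al in the counts of both genes was 20.9% (20.1 to 21.8%) in the WT control, 31.0% after 1 h, 36.5% after 2 h, 42.6% after 5 h and 44.3% (43.0 to 45.6%) after 8 h. The PERK-/- share was 25.9% (24.5 to 27.3%) in the control, 25.1% after 1 h, 24.0% after 2 h, 28.4% after 5 h and 32.1% (30.5 to 33.7%) after 8 h, and only the last differed from the control by more than 5 percentage points. In NIH3T3 cells it was 33.4%, 35.5% and 32.6%, without such a shift. Of the 39 bases that set the 2 genes apart, 32 lie in the clipped sequence used for mapping.

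**Figure D4:**
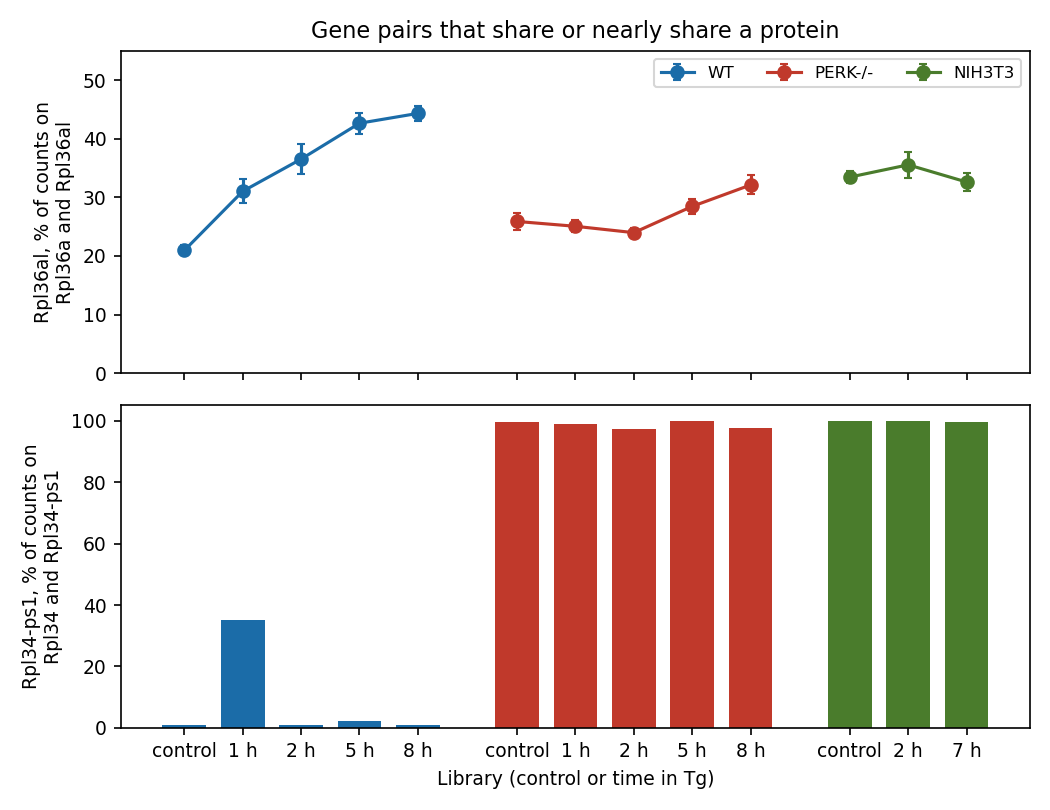
The upper panel shows Rpl36al as a percent of the counts on Rpl36a and Rpl36al in each library (points with exact binomial 95% intervals, lines join libraries of a cell line). It goes from 20.9% in the WT control to 44.3% after 8 h, and from 25.9 to 32.1% in PERK-/- MEFs. The lower panel shows Rpl34-ps1 as a percent of the counts on Rpl34 and Rpl34-ps1 (bars), at 35.1% in the 1 h WT library, 0.892 to 2.33% in the other WT libraries and 97.2% or more in all others.

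The value of Rpl34 depends on how reads are divided between it and its pseudogene. Rpl34 had 3635, 561, 962, 2436 and 5000 counts in the 5 WT libraries, but 0 to 133 counts in PERK-/- MEFs and 0 to 12 in NIH3T3 cells, where Rpl34-ps1 had 1594 to 6828 counts. Its listed changes, such as 2.68 in PERK-/- MEFs after 2 h, thus rest on a few reads at the 2 bases shown above. The 1 h WT library had 304 counts on Rpl34-ps1 (35.1% of both, 32.0 to 38.4%), where the other 4 WT libraries had 10 to 58. The pseudogene lies 219 kb from Eif2ak3 on chromosome 6. NIH3T3 cells, which are not the knockout line, also had 99.7% or more of the counts on both genes on it. The source of the reads listed under Rpl34-ps1 was not tested. With both genes summed, the log2 change of counts was −0.36 (−0.47 to −0.25) after 1 h in WT MEFs and 0.33, 0.53 and 0.56 (0.49 to 0.62) at 2, 5 and 8 h. The PERK-/- sum was at −0.03, 0.08, −0.01 and −0.45 (−0.55 to −0.36), and in NIH3T3 cells at 0.02 and 0.42. Rpl34 summed in this way was among the highest members in WT MEFs at 5 and 8 h, near Rpl10a and Rpl36al. Rpl29, a basic protein of the large subunit, had 245 to 1429 counts in MEFs but 0 to 5 in NIH3T3 cells, and 82.1% of its 28-base stretches occur in other listed genes, so it is not read in NIH3T3 cells.

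Apart from the unresolved Rpl34, the member that rose most in PERK-/- MEFs was Rpl38, a small large-subunit protein known for its role in the translation of Hox mRNAs in the mouse embryo. It had 2028 TPM in the control and 3591, 5218, 2704 and 1848 TPM at 1, 2, 5 and 8 h. The first 2 values lay far above the control and the last just under it. The log2 change of counts was 0.85 (0.77 to 0.93) after 1 h and 1.43 (1.36 to 1.5) after 2 h. In WT MEFs Rpl38 had 3033 TPM in the control and 2488, 1886, 1956 and 1839 TPM, so all 4 values lay below, and in NIH3T3 cells its 3122, 3066 and 3049 TPM were level. Rpl22l1, the paralog of Rpl22, had 351 TPM in the PERK-/- control and 587, 619.98, 432 and 255 TPM with Tg, a rise at 1 and 2 h (0.74 and 0.82). Its WT values were 288 TPM in the control and 239, 214, 165 and 182 TPM. Rps26, of the mRNA exit channel, followed by its mean distance from the median (0.27), with 2006 TPM in the PERK-/- control and 2807, 2791, 2418 and 1863 TPM.

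Lowest in PERK-/- MEFs was Rps19bp1, which is no ribosomal protein and also fell at all 4 times in WT MEFs (−0.63 to −0.80). It had 263 counts in the control and 239, 518, 103 and 204 with Tg, and the log2 change of counts after 5 h was −1.61 (−1.95 to −1.27). Next came Rpl35a, with 1563 TPM in the control and 1406, 1656, 1033 and 882 TPM, and Rps9, with 2369 TPM and then 1967, 1915, 2057 and 1508 TPM. Rps9 lies at the entry of the mRNA channel, and its 4 values were all below the control while most members were above theirs at 1 and 2 h.

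In NIH3T3 cells other genes stood out. Rpl30 had 874 TPM in the control and 1196 and 1312 TPM at 2 and 7 h, and Rpl3, which lies near the peptidyl transferase centre, had 1447, 1617 and 2519 TPM. Their mean distances from the members' median were 0.62 and 0.58, and 65.1% of the 28-base stretches of Rpl30 are shared with other listed genes. Rpl7l1, a biogenesis paralog of Rpl7, came next with 215, 296 and 267 TPM. Rps12, of the 40S head, was lowest with 1825, 1064 and 1366 TPM, then Rps27l, the p53-responsive paralog of Rps27, with 1528, 988 and 1151 TPM, and Rps2 with 1249, 807 and 1047 TPM. In MEFs, Rps27l fell at 5 and 8 h in WT MEFs (−0.62 and −0.73) while Rpl7l1 passed 1.5-fold in no library. Rps12 fell after 2 h in NIH3T3 cells (−0.78), and after 7 h it was at −0.42. Over the 73 standard members read in both lines, Spearman's rho between the changes in WT MEFs and NIH3T3 cells after 2 h was 0.16, a weak relation. It was 0.30 between WT MEFs after 8 h and NIH3T3 cells after 7 h. Tg doses differ between these lines. Over the same members, rho between WT and PERK-/- MEFs was −0.44 after 2 h and 0.51 after 8 h. Coding length and GC content were not accounted for in these values.

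The log2 ratios between neighbouring WT libraries varied little over the members from 2 h on. Between the libraries at 5 and 8 h the log2 ratios of 74 standard members had an SD of 0.05 and none passed 1.5-fold, beside an SD of 0.19 over all expressed genes. Between 2 and 5 h the SD was 0.10, and between 1 and 2 h 0.20, with Rpl24 farthest (−0.55). Over all expressed genes these 2 SDs were 0.35 and 0.46. Members stand far above most expressed genes, with medians of 1556 and 20.4 TPM in the WT library after 8 h. How far counting error sets their SDs apart was not tested. The PERK-/- SD was 0.16 between 1 and 2 h, 0.28 between 2 and 5 h, where 19 members were lower by 1.5-fold and 0 higher (8.67% and 21.2% of all expressed genes), and 0.14 between 5 and 8 h. Between 2 and 7 h in NIH3T3 cells it was 0.30, with 17 of 73 members higher by 1.5-fold and 1 lower (17% and 14% of all expressed genes). The SDs over all expressed genes were 0.30, 0.61 and 0.54 for these PERK-/- intervals and 0.63 for NIH3T3 cells.

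A measure that the choice of genes did not use, the GC content of the coding sequence, went with the size of the change. Across 81 members with a sequence (39.6 to 61.3% GC), Spearman's rho of GC content and change was 0.24 after 1 h in WT MEFs, 0.53 after 2 h, 0.58 after 5 h and 0.61 after 8 h. It was −0.44 after 1 h and −0.56 after 2 h in PERK-/- MEFs, 0.15 and 0.21 at 5 and 8 h, and −0.24 and 0.10 in NIH3T3 cells. All expressed genes had rho values of the same sign in WT MEFs (0.25 to 0.47) and in PERK-/- MEFs at 1 and 2 h (−0.37 and −0.47). In 3 groups of 27 members by GC content, the median change after 8 h in WT MEFs was −0.62 in the lowest, −0.17 in the middle and −0.01 in the highest group. Of 27 each, 16, 6 and 2 fell, beside 12% of all expressed genes of any GC content. In PERK-/- MEFs after 2 h the medians were 0.47, 0.36 and 0.11, and 7, 3 and 0 rose, beside 3.57% of all expressed genes of any GC content. Shares over all expressed genes were not taken by GC group. Since changes of all expressed genes also went with GC content, these counts are not read as particular to the members. With the trend of all expressed genes on GC content removed, rho over the members was 0.25 after 8 h in WT MEFs and 0.05 after 2 h in PERK-/- MEFs, and the SD over members went from 0.42 to 0.35 and from 0.38 to 0.35. Rpl24 was then at −1.17 after 8 h in WT MEFs, Rpl36a at −0.94, Rpl36al at 0.60 and Rpl10a at 0.35, and Rpl38 was at 1.29 after 2 h in PERK-/- MEFs. Whether base composition acts in the cells or in the libraries was not tested. Genes are not independent replicates and the comparisons of a cell line share 1 control, so these correlations describe the libraries only.

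**Figure D5:**
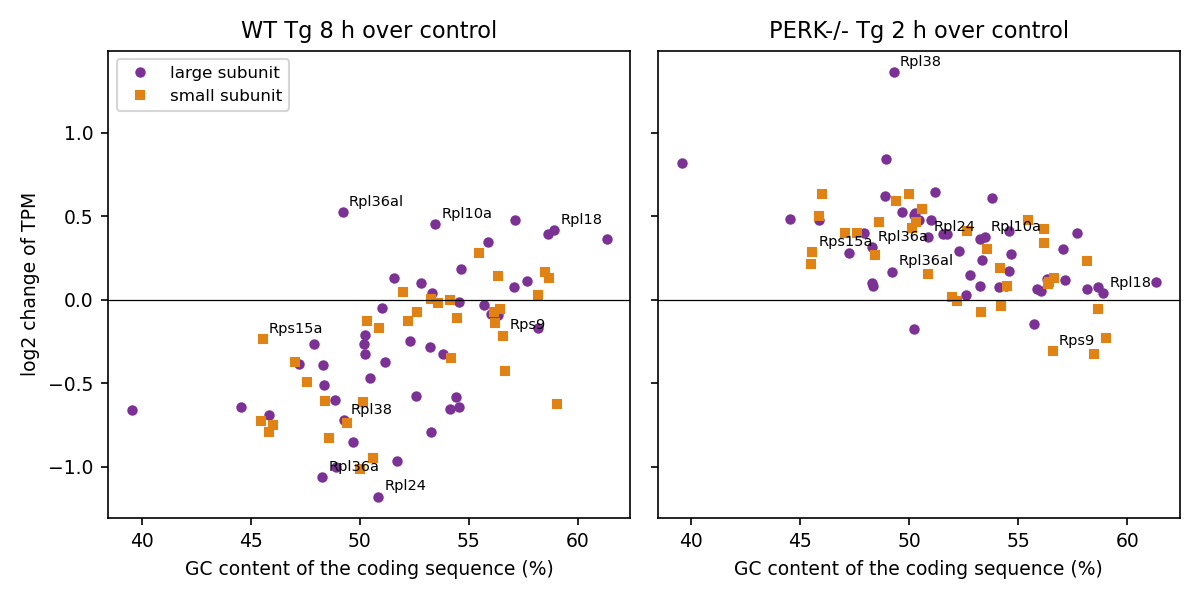
Each point is a ribosomal protein gene (circles large, squares small subunit), with the GC percent of its coding sequence on the x axis and its log2 change of TPM on the y axis, for WT after 8 h (left) and PERK-/- after 2 h (right), without Rpl34. Points run upward in the left panel (rho 0.61 over the 81 members, Rpl34 included) and downward in the right (rho −0.56), and Rpl36a and Rpl36al lie at 48.3 and 49.2% GC with changes of −1.06 and 0.52.

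Other genes of the pathway, from lists set with the members, moved in part with them. Of 17 further mRNAs known as TOP mRNAs (elongation factors, Pabpc1, Tpt1 and others), 5 (29.4%) fell and 0 rose at 1, 2 and 5 h in WT MEFs, where 10.2 to 12.3% of all expressed genes fell, and 8 (47.1%) fell after 8 h, where 12% did, with medians of −0.10, −0.29, −0.38 and −0.49. Their PERK-/- medians were 0.24, 0.31, −0.06 and −0.41, with 6 (35.3%, beside 8.24%) that fell after 8 h, and in NIH3T3 cells −0.26 and 0.17. The 37 genes of ribosome biogenesis had medians of 0.08, 0.14, 0.04 and −0.01 in WT MEFs, where 0 to 3 fell. They were at 0.25, 0.17, −0.33 and −0.61 in PERK-/- MEFs, where 10 (27.0%) fell after 5 h and 21 (56.8%) after 8 h, beside 12.8% and 8.24% of all expressed genes. In NIH3T3 cells 13 (35.1%, beside 16.7%) rose after 7 h (median 0.45). The 77 mitochondrial ribosomal proteins had medians between −0.12 and 0.11 in the 8 MEF comparisons, with 2 to 10 (2.60 to 13%) that fell and 1 to 9 (1.30 to 11.7%) that rose in each, where 8.24 to 18.8% and 3.57 to 17.8% of all expressed genes did. In NIH3T3 cells their median was −0.23 (−0.31 to −0.13) after 2 h and −0.02 after 7 h. After 2 h 10 (13%) fell and 2 (2.60%) rose, beside 18.2% and 12% of all expressed genes. After 7 h 20 (26.0%) fell and 10 (13%) rose, beside 20.1% and 16.7%.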

How the data were processed

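The tables hold ribosome footprints of 13 conditions with 1 library each. Footprints of 22 to 34 nt were kept by the authors, without cycloheximide before harvest. After removal of rRNA and tRNA reads they were mapped to RefSeq coding sequences of mm10, with 30 nt taken off either side and transcripts below 100 nt left out. STAR, Bowtie2 and RSEM are named in the submitters' processing notes, with versions not given in the sources used here. Expected counts, whole in these tables, are deposited per gene and unscaled. TPM, also deposited, come from RSEM within a library, so a change is relative to all other genes. Groups came from the GEO labels and doses from the study's methods.

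Means of TPM of 2 or more over a table were required (10432 genes in MEFs, 10117 in NIH3T3 cells), TPM under 4 was raised to 4, and Tg was set against the control of the same line. A gene rose or fell if it changed at least 1.5-fold. With 1 library per condition no test was made. Medians over genes have 95% binomial order-statistic intervals, single genes the exact conditional (Clopper-Pearson) interval of counts per library total, and shares exact binomial intervals. In the smallest library 3 counts, the limit that a count of 0 allows, are 1.19 CPM.

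The members and lists were chosen with earlier results of these data known. Named are Rplp0, Rplp1, Rplp2 and Rpsa, the paralogs and Rps19bp1, the 3 standard members with the highest and lowest TPM in the WT control, the 3 farthest above and below the members' median in each line (at least 100 counts in every library of the line), and those changed 2-fold. Others named, such as those of the structural groups and printed promoters, illustrate their lists. Ribosomal proteins with symbols outside the rule are not reported here. Alternatives were other scalings, floors, filters and thresholds, thinned counts and a removed GC trend. Coding sequences were read from GENCODE (GRCm38) and promoters from RefSeq. The log2 ratio of counts and its exact interval were tried on a simulated pair of libraries with known changes. The TPM floor, the calls, the scalings, the GC removal and the thinning were not. Software was Python 3.11.15 (pandas 2.3.3, numpy 2.4.6, statsmodels 0.14.6, scipy 1.17.1, matplotlib 3.10.9), and DESeq2 1.42.0 and edgeR 4.0.16 in R 4.3.3 for scaling factors only.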

Additional observations from a re-analysis of the deposited data

Results flagged for a closer look

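The members went opposite ways in WT and PERK-/- MEFs early in Tg. After 1 h their median log2 change was −0.32 in WT and 0.27 in PERK-/- MEFs. After 2 h it was −0.27 in WT and 0.29 in PERK-/- MEFs. The difference was not tested, since each value is 1 library over 1 control. The values at 2 h do not use the WT library at 1 h.

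Outside the members, the WT library at 1 h had 304 counts on Rpl34-ps1, where the WT control had 34. It also had 357 counts on 8 genes (Coch, Col10a1, Fmod, Gm4737, Hoxa10, Hoxd13, Sfn and Tdg-ps) with at least 100 counts in each PERK-/- library, on which the WT control had 33 counts and the PERK-/- libraries 2526 to 5770. The cause was not tested.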

How the results depend on the processing

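The sign of the members' median was the same in all 10 comparisons under every alternative run. It ranged over the alternatives from −0.36 to −0.31 at 1 h in WT MEFs, from −0.34 to −0.25 at 2 h, from −0.28 to −0.16 at 5 h and from −0.34 to −0.22 at 8 h, and in PERK-/- MEFs from 0.27 to 0.38, 0.28 to 0.47, −0.10 to −0.05 and −0.53 to −0.44. With TMM factors the median left the interval of the reported value at 1, 2 and 8 h in PERK-/- MEFs (0.38, 0.45 and −0.53) and in NIH3T3 cells at 2 h (−0.13), and with DESeq2 size factors it did so at the same places (0.38, 0.47, −0.53 and −0.11). In NIH3T3 cells at 2 h it was −0.17 with CPM and −0.18 with thinned counts. These scalings moved the median of all expressed genes by up to 0.13, and relative to it the members stood at 0.47 in PERK-/- MEFs at 2 h and −0.11 in NIH3T3 cells at 2 h with DESeq2 size factors. The difference between the medians of the large and the small subunit lay between −0.19 and 0.14 in 150 recomputed values, and its sign was that of the reported value in 135 and the other in 15, which fell in 7 of the 10 comparisons. Scaling of a library cancels in this difference. In MEFs it was identical with CPM, TMM and DESeq2 size factors, and a TPM floor of 1 repeated the reported value. The 150 values are thus not separate checks, and 135 of 150 overstates how far the sign held.

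Counts of changed members moved more. At 2-fold, 3, 2, 1 and 4 of 82 members fell in WT MEFs at 1, 2, 5 and 8 h. Of all 10432 expressed genes 239, 418, 370 and 404 did. The excess of falls seen at 1.5-fold was thus not clear at 2-fold. In PERK-/- MEFs 1 and 2 members rose at 1 and 2 h, beside 75 and 65 of all genes. There 1 and 0 fell at 5 and 8 h, beside 498 and 285. In NIH3T3 cells 0 fell at 2 h and 0 rose at 7 h, beside 380 and 709 of all 10117 genes. At a lower threshold, a log2 change of 0.32, the members' counts in the same order were 41, 38, 33 and 37, 31 and 37, 10 and 57, and 36 and 19. Counts over all expressed genes were not taken for this and the following settings. With TMM factors 10 and 23 rose in PERK-/- MEFs at 1 and 2 h and 1 and 31 fell at 5 and 8 h, and in NIH3T3 cells 1 fell at 2 h. With DESeq2 size factors 10 and 26 rose and 31 fell at 8 h in PERK-/- MEFs, and in NIH3T3 cells 1 fell at 2 h and 7 rose at 7 h. In NIH3T3 cells at 2 h, 1 fell with CPM and 1 with thinned counts. With the GC trend removed 7 rose in PERK-/- MEFs at 1 h and 3 fell in NIH3T3 cells at 2 h. Without members that share at least 50% of their 28-base stretches (added after seeing the data) 2 rose in PERK-/- MEFs at 1 h and 2 in NIH3T3 cells at 7 h, and with standard members of at least 100 counts alone (also added) 2 rose in PERK-/- MEFs at 1 h. Changes against the direction of the median, summed over the times of a line, were 3 in WT, 3 in PERK-/- and 1 in NIH3T3 cells. They were 0 in WT MEFs with standard members, with 100 counts, with 300 nt, with a mean TPM of 5 or without shared sequence, 5 with CPM, 7 with thinned counts and 18 at a log2 change of 0.32. In PERK-/- MEFs they were 0 with 100 counts (also with standard members alone), 1 with standard members, without shared sequence or with the GC trend removed, and 6 at a log2 change of 0.32. In NIH3T3 cells they were 0 at 2-fold, 2 with a floor of 1, a pseudocount or thinned counts, 3 with TMM or DESeq2 factors and 9 at a log2 change of 0.32.

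No paired analysis was possible because each group is 1 library, and there was no replicate to leave out. Depth limits Rpl37rt, Rpl29 in NIH3T3 cells and Rpl34 outside WT MEFs, whose counts were near 0.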
